A study of Homo sapiens with 6 samples.

Results

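GPRC5A (ENSG00000013588) and ARSJ (ENSG00000180801) are 2 of the 57232 genes in a table of RNA-seq values from IMR90 cells, human fetal lung fibroblasts, and they were chosen by their values in that table. Both had close values among the libraries of each group and a level about 2-fold higher with ARID1B than with the empty vector. Because that contrast chose them, their levels are described here without a test.

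GPRC5A encodes an orphan receptor of the class C family of G protein-coupled receptors. Its RNA was first identified as one induced by retinoic acid, and in the adult lung it is known from epithelial cells, where it is studied as a suppressor of tumors that restrains EGFR and STAT3 signaling. ARSJ encodes arylsulfatase J, a member of the sulfatase family, whose enzymes remove sulfate groups from glycosaminoglycans, lipids and steroids. Sulfatases become active only when a cysteine in their active site is converted to formylglycine, a step carried out in the endoplasmic reticulum by the enzyme encoded by SUMF1.

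The 3 vector libraries came from IMR90 cells at passage 13 infected with an empty vector, and the 3 ARID1B libraries from the same cells infected with a cDNA of ARID1B, a DNA-binding subunit of the SWI/SNF chromatin remodeling complex. Both groups were kept under puromycin until day 4, so that cells with an integrated vector survived, and were collected on day 6 after infection. The legend in the study calls the 3 samples of each group biological replicates, without saying how they were separated. Levels are in FPKM, a count of fragments divided by gene length and by library total. Differences are on log2(FPKM + 1), which understates changes of genes at low levels, and were computed for the 10416 genes whose mean over the libraries reached 1 FPKM.

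The library totals behind these values, recovered from the steps of low FPKM values, lay between 63386813 and 91924514 reads or fragments. Vector replicate 2 stood apart on the first principal component, which held 63.8% of the variance, with a score of 48.5 against -20.0 to 3.63 in the other 5 libraries. The median gene in vector replicate 2 lay 0.40 from the other vector libraries on the log2 scale, in absolute value. Replicate 3 lay between replicates 1 and 2 for 85.0% of the genes tested in the vector group and for 69.2% in the ARID1B group. On the log2 scale the SD of its difference from a weighted mean of replicates 1 and 2 was 0.0858 for the vector and 0.0996 for ARID1B, against 0.689 and 0.398 for replicate 1 minus replicate 2. The 3 libraries of a group may therefore hold fewer than 3 independent samples, and each SD and p below takes them as independent. All 9 fibroblast markers were measured, with summed levels of 1947 to 2631 FPKM in the vector libraries and 1912 to 2667 FPKM in the ARID1B libraries. The sum hides differences of single markers. Without overlap of the groups, LUM was higher with ARID1B (means of 26.5 and 68.5 FPKM) and VIM lower (677 and 498 FPKM). Such groups were found for 9.44% of all genes tested on the higher side and 11.1% on the lower. Vector replicate 2 was the extreme vector library for both. It had 4.21 FPKM of LUM (42.4 and 33.0 FPKM in replicates 1 and 3) and 846 FPKM of VIM (564 and 622 FPKM). The log2 change of LUM was 1.78 (adjusted p = 0.497 from limma), and 0.82 without that library. The groups overlapped for the other markers of that list. Of 13 epithelial markers, 3 reached a mean of 1 FPKM, and CDH1, EPCAM, SFTPB and NKX2-1, which define airway and alveolar epithelium, had means no higher than 0.205 FPKM in either group.

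ARID1B (ENSG00000049618) itself checks the labels. Its vector libraries, in the order of replicates 1 to 3, had 2.29, 1.31 and 2.05 FPKM. With the cDNA they had 32.5, 21.0 and 28.3 FPKM. Each ARID1B library was far above each vector library, and the difference of 3.29 on the log2 scale, with a standard error of 0.208, passed the test across all genes (limma, adjusted p = 0.0255). Transcripts of the cDNA and of the endogenous gene are counted together here.

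The vector libraries had 4.86, 5.18 and 5.04 FPKM of GPRC5A, in the order of replicates 1 to 3 that is kept below. With ARID1B the 3 libraries had 11.6, 10.3 and 10.6 FPKM. The groups did not overlap, and the lowest ARID1B library was 1.99-fold above the highest vector library. The means were 5.02 ± 0.158 FPKM (SD, n = 3) with the vector and 10.8 ± 0.654 FPKM (SD, n = 3) with ARID1B, a ratio of 2.16 and a difference of 0.97 on the log2 scale.

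For ARSJ the vector libraries had 9.01, 9.09 and 8.58 FPKM. Its levels with ARID1B were 16.9, 15.5 and 16.8 FPKM. Here too the groups did not overlap, with the lowest ARID1B library 1.71-fold above the highest vector library. The means were 8.89 ± 0.274 FPKM (SD, n = 3) with the vector and 16.4 ± 0.781 FPKM (SD, n = 3) with ARID1B, a ratio of 1.84 and a difference of 0.81 on the log2 scale. In bulk RNA, more cells that express a gene and more of its RNA per cell cannot be told apart.

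Groups that did not overlap were found for 20.5% of all genes tested, 9.44% with the ARID1B libraries on top and 11.1% with the vector libraries on top. At an adjusted p under 0.05, limma placed 3 genes higher, which is 0.0288% of the genes tested, and 0 lower. At an unadjusted p under 0.05 it placed 483 higher (4.64%) and 619 lower (5.94%). Those 3 were ARID1B, IL7R and IL8. Limma's voom on the recovered reads placed 1 gene higher and 0 lower.

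**Figure D1:**
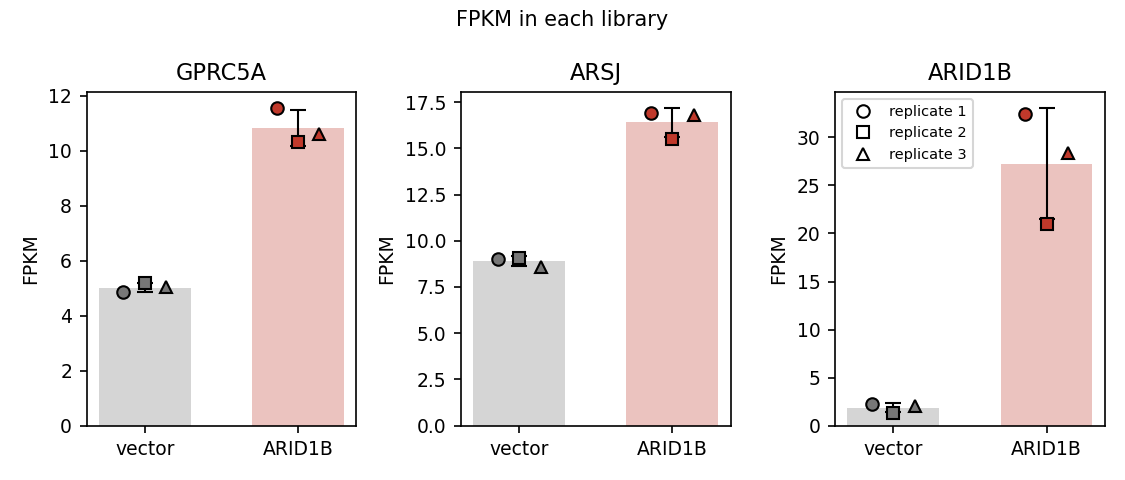
FPKM (linear axes) of GPRC5A, ARSJ and ARID1B in each of 6 libraries. Bars are means of 3 libraries, whiskers their SD, and the shape of a marker stands for the replicate. GPRC5A lies between 4.86 and 5.18 FPKM with the vector and between 10.3 and 11.6 FPKM with ARID1B, while the 3 ARID1B libraries spread from 21.0 to 32.5 FPKM for ARID1B itself.

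Counting error was small for both genes. GPRC5A was backed by 4423, 5296 and 3608 recovered reads in vector replicates 1, 2 and 3 and by 9151, 8635 and 11033 in ARID1B replicates 1, 2 and 3. ARSJ had 7669, 8704 and 5751 reads in the vector libraries and 12530, 12153 and 16315 in the ARID1B libraries, in the same order. Counting alone, as a Poisson error, gave at most 1.66% of the level for GPRC5A and 1.32% for ARSJ in any library. It covers neither library preparation nor culture. Reads recovered in this way are too few by a whole factor wherever the 6 values of a gene share a divisor.

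The spread between libraries was wider than counting error in both groups. The coefficient of variation (CV, the SD as a share of the mean) of GPRC5A was 3.15% among vector and 6.04% among ARID1B libraries, and that of ARSJ was 3.08% and 4.76%. The median gene tested had a CV of 21.1% among vector and 10.3% among ARID1B libraries. Within the vector group, 5.84% of the genes tested had a CV as low as that of GPRC5A and 5.62% one as low as that of ARSJ. For the ARID1B group these shares were 26.7% and 19.1%. The pair was chosen for close values in both groups, so these shares describe it and test nothing. They were smaller in the vector group, where the CVs of all genes, 21.1% at the median, include vector replicate 2.

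The close vector values include the library that stood apart. In vector replicate 2, GPRC5A lay 0.05 and ARSJ 0.04 above the mean of the other 2 vector libraries on the log2 scale. A smaller absolute distance was found for 7.45% and 6.05% of the genes tested. Without vector replicate 2 the log2 difference was 0.99 for GPRC5A and 0.83 for ARSJ, and leaving out each library in turn gave 0.929 to 1.004 for GPRC5A and 0.79 to 0.85 for ARSJ. Replicate 3 of GPRC5A lay between replicates 1 and 2 in both groups, whereas vector replicate 3 of ARSJ, at 8.58 FPKM, lay below both.

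Among all genes tested, the difference of GPRC5A ranked 76th and that of ARSJ 119th from the highest. A total of 218 genes (2.09%) had CVs no larger than the larger of the pair's own in each group. GPRC5A and ARSJ were the 2 of these with a log2 difference of at least 0.81. In the other direction, IGFBP6, which encodes a binding protein for insulin-like growth factors and was singled out after its values were seen, had a difference at least as large. Its levels were 43.3, 43.1 and 44.5 FPKM in the vector libraries and 23.0, 24.2 and 22.5 FPKM in the ARID1B libraries. Since the bounds are the pair's own values, these counts describe where the pair lay and test nothing.

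With CVs up to 2 times as large in each group, 2 more genes reached that difference. F3, which encodes tissue factor, the starter of blood coagulation, stood at 30.4, 30.8 and 29.9 FPKM with the vector and at 60.7, 74.4 and 66.4 FPKM with ARID1B. MEST, an imprinted gene, ran from 16.7 to 17.8 FPKM with the vector and from 32.2 to 38.3 FPKM with ARID1B. F3 lay outside by its ARID1B values, with a CV of 10.2%. MEST lay outside in both groups, with CVs of 3.50% for the vector and 9.14% for ARID1B.

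**Figure D2:**
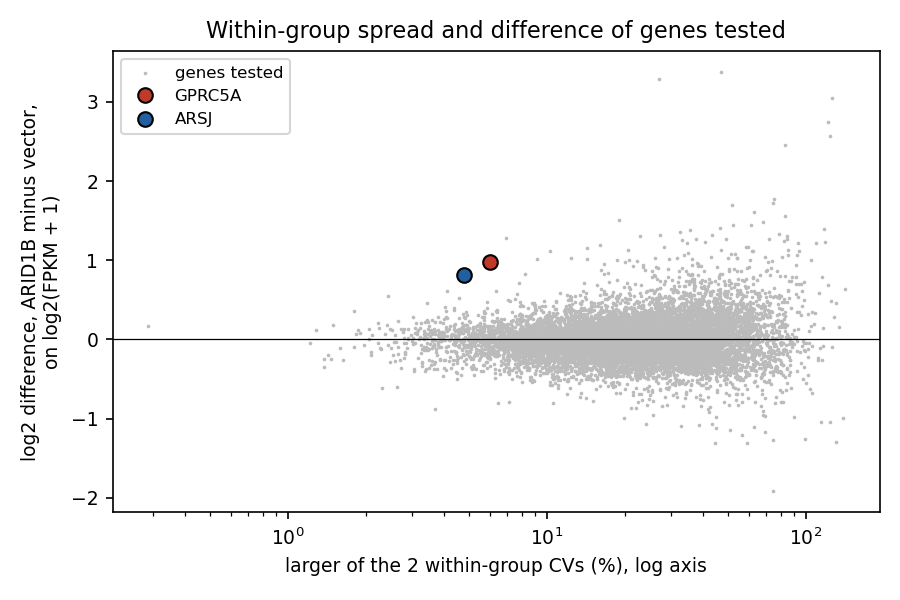
Difference of ARID1B minus vector on the log2(FPKM + 1) scale against the larger of the CVs within the 2 groups (log axis), for 10416 genes tested (gray). GPRC5A (red, 6.04% and 0.97) and ARSJ (blue, 4.76% and 0.81) are among few genes with a high difference at a low CV, the pattern they were chosen for, and IL7R (6.92% and 1.28) lies higher at a similar CV.

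The difference of GPRC5A was somewhat larger than that of ARSJ. The ratio of ARSJ to GPRC5A was 1.85, 1.76 and 1.70 in vector replicates 1, 2 and 3. With ARID1B the ratio was 1.46, 1.504 and 1.58 in replicates 1, 2 and 3, so the ranges of the groups did not overlap. The ratios come from the values that chose the pair, so they describe it and test nothing. Within the ARID1B group, both genes had their highest level in replicate 1 and their lowest in replicate 2, as did ARID1B itself. Of genes described here, MEST, CRIM1, STS and ARSB had the same order, whereas DDAH1 and FSTL1 did not. The share of all genes with that order was not counted. Replicate 3 lay between replicates 1 and 2 for 69.2% of the genes tested in this group. With 3 libraries this order is a description, and ARID1B spread far more, with a CV of 21.2%.

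Levels of different genes depend on the gene lengths the authors divided by. The smallest lengths that turn the FPKM values into whole reads were 11301 bases for GPRC5A and 10575 bases for ARSJ. The joined exons of their transcripts in GENCODE release 29, on another build than that of the table, cover 8440 and 5146 bases. Divided by those, GPRC5A would stand at 6.73 with the vector and 14.5 with ARID1B, and ARSJ at 18.3 and 33.7. ARSJ was the higher of the pair on both scales, but by a different ratio. For a single gene, the ratio of its group means does not depend on the length. Its difference between groups as computed here does, through the constant added to FPKM before the logarithm.

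In that annotation, MIR614 lies within GPRC5A on the same strand and a noncoding gene lies within ARSJ on the opposite strand. Both were listed at 0 in all 6 libraries. The table gives 1 value per gene and does not separate the 6 annotated transcripts of GPRC5A or the 4 of ARSJ.

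Across genes, the log2 change also varied with GC content in these data, with a Spearman's rho of -0.55 over 10195 genes, which are not independent. With the length of the longest transcript the rho was 0.40. The longest transcript has a GC content of 50.4% for GPRC5A and 43.3% for ARSJ, and 58.5% and 32.3% of the genes had a lower one. A shorter longest transcript was found for 89.1% of the genes beside GPRC5A and for 66.8% beside ARSJ. Once GC content and length had been corrected for, the log2 difference was 0.88 for GPRC5A and 0.69 for ARSJ.

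The question of whether relatives of GPRC5A changed with it could be put to few genes. The GPRC5 family has 4 members, which share the seven-helix class C fold with a short outer domain. GPRC5B, the other member that reached 1 FPKM, stood at 4.24, 0.926 and 3.68 FPKM with the vector and at 2.29, 3.47 and 2.53 FPKM with ARID1B. The groups overlapped widely, and its log2 change was 0.04 (SE 0.387, adjusted p = 0.971 from limma), which turned to -0.41 without vector replicate 2 (adjusted p = 0.176). GPRC5C was at most 0.0131 FPKM and GPRC5D at most 0.0191 FPKM in any library, so GPRC5A held the highest mean of the family in both groups. Its library range did not overlap that of GPRC5B in either group, although 4.24 FPKM of GPRC5B in vector replicate 1 came near to 4.86 FPKM of GPRC5A. This order depends on the gene lengths used and was not checked with joined exons as the length.

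Of 18 other class C receptors, 2 reached a mean of 1 FPKM, both subunits of the GABA-B receptor. GABBR2 ran from 1.69 to 6.37 FPKM with the vector and from 2.34 to 6.62 FPKM with ARID1B, and its log2 change was 0.44 with a standard error of 0.462 (limma, adjusted p = 0.754), and 0.14 to 0.86 with 1 library left out. GABBR1 ran from 1.26 to 1.51 FPKM and from 1.07 to 1.86 FPKM. Neither passed, and neither did at an unadjusted p under 0.05 or with voom.

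GPRC5A is known as a retinoic acid target, and most other listed genes of the retinoid system had negative differences. Of 21 genes reported here, 11 were tested, 9 of them with a negative change, and 0 rose and 0 fell in limma, also with voom. At an unadjusted p under 0.05 in limma, 0 of the 11 were higher and 3 lower, beside 4.64% and 5.94% of all genes. The median log2 change of the 11 was -0.19, against -0.02 for all genes tested, of which 47.6% had a positive change. The groups did not overlap for 3 of the 11, each lower with ARID1B, beside 11.1% of all genes.

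Those 3 encode a binding protein and 2 receptors. CRABP2, which carries retinoic acid to its receptors, stood at 16.8, 7.45 and 16.1 FPKM with the vector and at 5.54, 5.66 and 5.27 FPKM with ARID1B (log2 change -1.08, standard error 0.292, adjusted p = 0.322 from limma). Its ARID1B libraries were close together, and vector replicate 2 lay nearest to them.

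RARG, a retinoic acid receptor, stood at 3.97, 3.66 and 4.19 FPKM with the vector and at 2.34, 2.63 and 2.26 FPKM with ARID1B, close in both groups (log2 change -0.54, standard error 0.0998, adjusted p = 0.264 from limma). RXRB, a partner of these receptors, ran from 7.98 to 8.52 FPKM with the vector and from 6.24 to 6.85 FPKM with ARID1B (log2 change -0.31, standard error 0.0963, adjusted p = 0.372 from limma). Once GC content and length were corrected for, the log2 change was -0.35 for RARG and -0.14 for RXRB. Without vector replicate 2, 3 of the 11 genes fell, beside 1.91% of the genes tested in that fit. They were CRABP2 (log2 change -1.43, adjusted p = 0.0131), RARG (-0.58, adjusted p = 0.0372) and TGM2, a transglutaminase induced by retinoic acid (-0.62, adjusted p = 0.0376 from limma). RDH10, which makes retinal from retinol, ran from 3.04 to 5.89 FPKM and from 5.10 to 11.1 FPKM (log2 change 0.58, adjusted p = 0.561 from limma, and 0.35 without vector replicate 2). RARB and CYP26A1, direct targets of the retinoic acid receptors, were at most 0.103 and 0.0128 FPKM in any library.

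**Figure D3:**
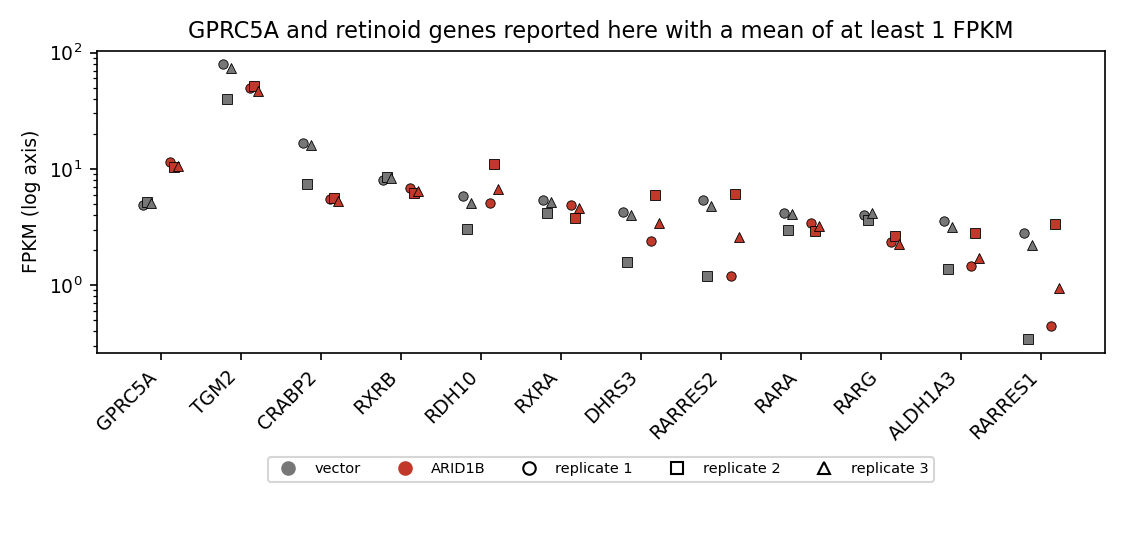
FPKM (log axis) of GPRC5A and of 11 tested retinoid genes in each library, with vector in gray, ARID1B in red and the marker shape giving the replicate. GPRC5A is higher in each ARID1B library, CRABP2, RARG and RXRB are lower in each, and the groups overlap for the other 8.

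GPRC5A is studied in lung for its part in EGFR, STAT3 and NF-kB signaling. Of 13 tested genes of that list, 9 had a positive difference, beside 47.6% of all genes, and the groups did not overlap for 1, which was higher, beside 9.44% of all genes. In limma 0 rose and 0 fell, also at an unadjusted p under 0.05 and with voom, and the median was 0.13. EGFR stood at 21.7, 9.50 and 19.5 FPKM with the vector and at 16.2, 16.9 and 16.7 FPKM with ARID1B. STAT3 had 6.58 FPKM in vector replicate 2 and 12.0 to 13.2 FPKM in the other 5 libraries (log2 change 0.28, standard error 0.241, adjusted p = 0.711 from limma). For both, vector replicate 2 was the low library. IL6ST, the signaling receptor of the IL6 family upstream of STAT3, ran from 9.39 to 32.6 FPKM and from 32.1 to 42.5 FPKM (log2 change 0.89, standard error 0.438, adjusted p = 0.534 from limma, and 0.37 without vector replicate 2). JAK1, a kinase upstream of STAT3, was the member whose groups did not overlap, at 24.7 to 37.3 FPKM against 37.3 to 38.3 FPKM, with a gap far smaller than the vector spread (log2 change 0.24, standard error 0.172, adjusted p = 0.662 from limma, and 0.062 without vector replicate 2).

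Of the 16 sulfatase genes reported here, which are not the whole family, 11 reached a mean of 1 FPKM, ARSJ among them. Within these 11, ARSJ lay above each of the other 10 in both groups, which gives no rank in the family as a whole. ARSB, the lysosomal enzyme that removes 4-sulfates from chondroitin and dermatan sulfate, came nearest to it at 7.47, 5.74 and 7.19 FPKM with the vector and at 9.29, 8.55 and 9.20 FPKM with ARID1B. The library ranges of ARSJ and ARSB did not overlap in either group. With joined exons as the length, ARSJ also lay above the other 10.

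Without ARSJ, 10 sulfatases of the list were tested, of which 0 rose and 0 fell in limma, also with voom. At an unadjusted p under 0.05 in limma, 4 were higher and 0 lower, beside 4.64% and 5.94% of all genes. Their median log2 change was 0.21, against -0.02 for all genes tested. A positive change was found for 6 of the 10, beside 47.6% of all genes. The groups did not overlap for 4 higher genes, beside 9.44% of all genes, and for 1 lower gene, beside 11.1%.

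The 4 higher genes act in lysosomes or on steroids. ARSK, a lysosomal enzyme that removes 2-sulfates of glucuronic acid, stood at 4.33, 4.39 and 4.01 FPKM with the vector and at 5.81, 5.77 and 6.74 FPKM with ARID1B (log2 change 0.44, standard error 0.105, adjusted p = 0.301 from limma). STS, the steroid sulfatase, stood at 3.52, 2.54 and 3.38 FPKM and at 5.99, 3.87 and 5.88 FPKM (log2 change 0.58, standard error 0.184, adjusted p = 0.381 from limma). The log2 change of ARSB was 0.37, with a standard error of 0.125 (limma, adjusted p = 0.397). IDS, the lysosomal iduronate-2-sulfatase, stood at 5.91, 4.24 and 4.90 FPKM and at 6.43, 6.55 and 7.09 FPKM (log2 change 0.36, standard error 0.131, adjusted p = 0.421 from limma, and 0.19 once GC content and length were corrected for). Each of these 4 had a smaller difference than ARSJ, and the differences between genes were not tested.

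ARSI, the sulfatase most closely related to ARSJ, had a small negative difference. It stood at 3.33, 3.43 and 3.53 FPKM in the vector libraries and at 3.40, 2.73 and 2.86 FPKM in the ARID1B libraries, so the groups overlapped (log2 change -0.15, standard error 0.105, adjusted p = 0.649 from limma, and 0.055 once GC content and length were corrected for). GALNS, which acts on keratan and chondroitin 6-sulfates, ran from 4.56 to 4.65 FPKM with the vector and from 3.93 to 4.40 FPKM with ARID1B (log2 change -0.14, standard error 0.0943, adjusted p = 0.642 from limma, and -0.072 with that correction). SULF1, which edits 6-sulfates of heparan sulfate outside the cell, varied most, at 2.93, 0.620 and 2.46 FPKM with the vector and at 2.75, 8.55 and 3.99 FPKM with ARID1B (log2 change 1.01, standard error 0.456, unadjusted p = 0.0666 from limma, and 0.61 without vector replicate 2). Its groups overlapped, unlike those of ARSJ. ARSA, ARSD and SGSH had log2 changes of -0.13, -0.0082 and 0.058, with overlapping groups, and ARSE, ARSF, ARSG, ARSH and SULF2 had means under 1 FPKM.

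**Figure D4:**
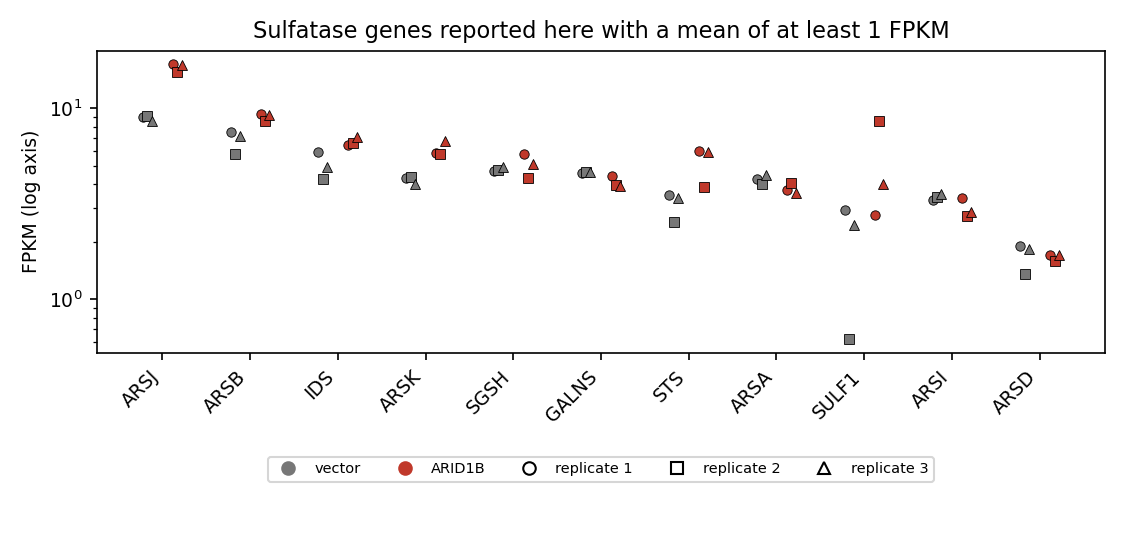
FPKM (log axis) of the 11 tested sulfatase genes in each library, ordered by mean level, with vector in gray, ARID1B in red and the marker shape giving the replicate. ARSJ has the highest levels of these, with 8.58 to 9.09 FPKM in the vector libraries and 15.5 to 16.9 FPKM in the ARID1B libraries, and ARSI overlaps between the groups.

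The groups overlapped for each of the genes that make sulfatases active or hold their activating enzyme in the endoplasmic reticulum. SUMF1, which encodes the formylglycine-generating enzyme, stood at 5.33, 4.13 and 5.22 FPKM with the vector and at 5.13, 5.33 and 5.12 FPKM with ARID1B (log2 change 0.08, standard error 0.119, adjusted p = 0.819 from limma). SUMF2, its paralog without that activity, ran from 7.79 to 10.4 FPKM and from 7.02 to 7.99 FPKM (log2 change -0.19, standard error 0.136, adjusted p = 0.662 from limma, and -0.072 without vector replicate 2). None of the 6 listed genes passed in limma, also at an unadjusted p under 0.05 and with voom.

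Of 12 enzymes and carriers that add sulfate to chondroitin and dermatan chains, or supply it, 9 were tested. There were 6 positive changes, beside 47.6% of all genes, and 0 rose and 0 fell in limma, also with voom. At an unadjusted p under 0.05 in limma, 1 was higher and 0 lower, beside 4.64% and 5.94% of all genes. The groups did not overlap for 2 higher genes, PAPSS2 and UST, beside 9.44% of all genes, and for 1 lower gene, CHST14, beside 11.1%. PAPSS2, which makes the sulfate donor PAPS, stood at 19.7, 14.7 and 18.8 FPKM with the vector and at 30.1, 22.9 and 31.3 FPKM with ARID1B (log2 change 0.63, standard error 0.173, adjusted p = 0.328 from limma). Its groups did not overlap. CHST14, the dermatan 4-sulfotransferase, ran from 9.32 to 9.66 FPKM with the vector and from 7.76 to 8.34 FPKM with ARID1B, a small difference with close values in both groups (log2 change -0.20, standard error 0.0942, adjusted p = 0.522 from limma, and -0.080 once GC content and length were corrected for).

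The genes whose libraries most resembled GPRC5A were ranked by the root mean square difference of log2(FPKM + 1), each gene centered on its own mean over the 6 libraries. The 5 nearest were MEST (0.073), ARSJ (0.090), CRIM1 (0.120), GPC4 (0.122) and DDAH1 (0.128). CRIM1, a membrane protein that binds bone morphogenetic proteins, stood at 41.4, 36.6 and 39.1 FPKM with the vector and at 88.3, 67.3 and 85.9 FPKM with ARID1B. DDAH1, which degrades methylated arginines, stood at 12.1, 11.5 and 11.6 FPKM and at 25.0, 19.4 and 26.9 FPKM. Both were about as much higher with ARID1B as GPRC5A, with a wider spread there. GPC4, a glypican of the cell surface, was at much lower levels, from 0.411 to 0.690 FPKM with the vector and from 1.90 to 2.12 FPKM with ARID1B.

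For ARSJ the 5 nearest were ITGB3 (0.089), GPRC5A (0.090), FZD4 (0.091), SRPX2 (0.109) and FSTL1 (0.110). SRPX2, a secreted sushi-repeat protein, had the closest values in both groups, at 15.7, 14.9 and 15.6 FPKM with the vector and at 25.3, 23.3 and 23.9 FPKM with ARID1B. FSTL1, a secreted glycoprotein of mesenchymal cells, stood at 103, 87.6 and 98.2 FPKM and at 166, 180 and 168 FPKM. ITGB3, an integrin subunit, and FZD4, a receptor for WNT ligands and norrin, lay between 1.01 and 1.81 FPKM with the vector and between 2.75 and 3.69 FPKM with ARID1B. GPRC5A and ARSJ were thus each the second nearest gene of the other. Their Pearson correlation over the 6 libraries was 0.995, which mostly reflects the step between the groups that chose them. By that measure ARSJ ranked 3rd for GPRC5A and GPRC5A 7th for ARSJ. C12orf5 (0.999 and 0.998) and IL7R (0.998 and 0.998) had higher correlations with GPRC5A and ARSJ.

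Genes beside the pair on their chromosomes, taken after the data were seen as the 3 nearest protein-coding genes on each side in RefSeq order, had smaller differences. Next to GPRC5A on chromosome 12, HEBP1, a heme-binding protein, stood at 15.0, 14.2 and 14.8 FPKM with the vector and at 16.8, 15.3 and 16.4 FPKM with ARID1B (log2 change 0.13, standard error 0.0993, adjusted p = 0.674 from limma). KIAA1467 ran from 0.762 to 1.20 FPKM and from 1.26 to 1.51 FPKM (log2 change 0.21, adjusted p = 0.581 from limma, and 0.11 without vector replicate 2). The groups did not overlap for HEBP1 and KIAA1467, both higher with ARID1B, which held for 9.44% of all genes tested. CDKN1B, which encodes the cell cycle inhibitor p27, ran from 3.76 to 9.51 FPKM and from 5.25 to 7.01 FPKM, and APOLD1, DDX47 and GPRC5D were under 1 FPKM.

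Next to ARSJ on chromosome 4, CAMK2D, a calcium-dependent kinase, stood at 16.0, 7.91 and 14.3 FPKM with the vector and at 17.02, 14.9 and 18.7 FPKM with ARID1B, with overlapping groups (log2 change 0.43, standard error 0.257, adjusted p = 0.612 from limma, and 0.14 without vector replicate 2). LARP7, which binds the small nuclear RNA of the 7SK complex, ran from 6.37 to 6.59 FPKM with the vector and from 5.50 to 5.96 FPKM with ARID1B (log2 change -0.16, adjusted p = 0.598 from limma). It was lower without overlap, which held for 11.1% of all genes tested. TRAM1L1 ran from 2.09 to 3.27 FPKM and from 2.15 to 3.24 FPKM, and ANK2, UGT8 and NDST4 were under 1 FPKM. None of these tested neighbors passed.

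GPRC5A is an epithelial gene in lung, and the summed level of the epithelial markers overlapped between the groups. It ran from 11.01 to 25.3 FPKM with the vector and from 13.3 to 20.7 FPKM with ARID1B, and NKX2-1, SFTPC, ESRP1 and KRT5 were at 0 in all 6 libraries. KRT18, a keratin of simple epithelia that fibroblasts can also express, stood at 4.35, 8.46 and 5.06 FPKM with the vector and at 12.4, 7.73 and 11.2 FPKM with ARID1B, with overlapping groups (log2 change 0.74, standard error 0.264, adjusted p = 0.419 from limma). KRT19 went the other way, with means of 8.33 FPKM with the vector and 4.92 FPKM with ARID1B (log2 change -0.52, adjusted p = 0.672 from limma). The log2 change of KRT8 was 0.10 (adjusted p = 0.842 from limma), and the groups overlapped for both. Endothelial markers summed to 0.883 to 3.66 FPKM with the vector and 1.82 to 3.63 FPKM with ARID1B, and blood markers to at most 0.0631 FPKM in any library. In none of the 5 marker lists did a gene pass in limma over the 6 libraries. Smooth muscle markers were the list whose summed levels did not overlap, at 70.3 to 112 FPKM with the vector and 115 to 121 FPKM with ARID1B. Most of that sum was ACTG2, the enteric smooth muscle actin (log2 change 0.52, adjusted p = 0.429 from limma, and 0.73, adjusted p = 0.0297, without vector replicate 2), and their part in the levels of GPRC5A and ARSJ was not tested.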

How the data were processed

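RNA of 6 IMR90 samples was sequenced after a stranded mRNA library preparation. The authors deposited FPKM values, 1 per gene and library. The submitters' notes list hg19 as the build and DESeq2, HTSeq (0.5.3p9) and TopHat2 (2.0.11) as tools, without roles, and how strand was counted is not given in the sources used here. The members and gene lists were chosen with earlier results of these data known. Steps of low FPKM values gave the library totals, from 29709 genes with a single GENCODE v29 transcript, and all 10416 genes tested gave whole reads within 0.002.

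Groups followed the sample titles. The test was limma 3.58.1 in R 4.3.3, two-sided, on log2(FPKM + 1) of genes averaging 1 FPKM or more, with the variance trend on. Adjustment was by Benjamini-Hochberg over all genes tested, and 0.05 was the threshold. The scripts were tested on simulated data. The lists were the GPRC5 family, other class C receptors, sulfatases, sulfatase activation, sulfotransferases, retinoid genes, EGFR, STAT3 and NF-kB genes, and cell markers. Some genes of these lists are not reported here and stayed out of the list counts. The rule for named genes was the pair, ARID1B, the GPRC5 and sulfatase families, up to 6 genes a list with the smallest p and the 5 genes most like each of the pair. Outside that rule, neighboring genes, IGFBP6, F3, MEST, EGFR, TGM2, RARB, CYP26A1 and some markers were named after their values were seen. Alternatives were another pseudocount, filter, scaling or variance model, the replicate number as a block, libraries left out, a correction for GC content and length (97.9% of genes matched) and voom. Figures were drawn with matplotlib 3.10.9 in Python 3.11.15.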

Additional observations from a re-analysis of the deposited data

How the results depend on the processing

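The log2 difference of GPRC5A (0.97) and ARSJ (0.81) was positive under all 16 alternatives. It moved by more than the spread between libraries with a pseudocount of 0.1 (1.09 and 0.88), with the correction for GC content and length (0.88 and 0.69) and with voom (1.11 and 0.88), and leaving out each library gave 0.929 to 1.004 and 0.79 to 0.85. The 3 genes past the threshold of limma became 0 with no filter, with the replicate block and without both libraries numbered 3, 1 with median-ratio rescaling, 1 with voom and 5 with the correction. Leaving out each library gave 0 to 125 genes higher and 0 to 199 lower, with 125 and 199 without vector replicate 2 and 0 without any other. The number of retinoid genes that fell ran from 0 to 3 in the same way, 3 of them without vector replicate 2. GPRC5B turned to -0.00350 with the correction, -0.41 without vector replicate 2 and -0.086 without ARID1B replicate 2, ARSI and ARSA turned to 0.055 and 0.18 with the correction, and SUMF1 to -0.020 without vector replicate 2. By Pearson correlation, 1 of the 5 genes most like GPRC5A and 0 of the 5 most like ARSJ remained. Same-numbered libraries did not deviate together (correlations of -0.46, -0.43 and -0.17). Vector replicate 2 stood apart, and replicate 3 of each group lay near a weighted mean of replicates 1 and 2. These correlations therefore cannot show whether the numbers pair the samples. Leaving out each library, the log2 change of GPRC5B ran from -0.41 to 0.31 and that of SUMF1 from -0.020 to 0.13. The causes of these moves were not tested. Depth gave the pair a counting error of at most 1.66% in any library, which was below their CVs in both groups.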
